A study of Bos grunniens and Bos grunniens x Bos taurus with 2 samples.

Results

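Cells of yak and cattle-yak testis with the most transcripts of *PIWIL4*, *SPOCD1* and *MORC1* were selected as candidate undifferentiated spermatogonia. A cell was selected when it held at least 5 unique molecular identifiers (UMIs, each counted as 1 captured transcript) of these 3 genes together, with no upper limit on depth. This gave 169 of 20921 cells. There were 90 in the yak library, which is 0.751% of its 11991 cells (95% interval 0.604 to 0.922%), and 79 in the cattle-yak library, which is 0.885% of its 8930 cells (0.701 to 1.10%). These counts depend on the limit. With at least 8 UMIs both were lower and the yak share was the larger, as counted under the dependence on processing. The 3 genes set the selection, so their levels are given as a description only.

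The series holds 1 droplet-based single-cell RNA library from frozen, dissociated testis of 1 sexually mature yak (*Bos grunniens*) and 1 from 1 sexually mature cattle-yak, labelled as a *Bos grunniens* and *Bos taurus* hybrid. The labels give no treatment or genetic change. They call both samples germ cells, although somatic markers were present in each. The yak library held 60816600 UMIs and the cattle-yak library 43774841, with medians of 2533 and 3155 UMIs per cell. Both were counted on the yak annotation, so a hybrid library and a yak library were read against 1 parent's genes. With 1 animal of each kind there was no replicate, no test was possible, and a difference between the libraries cannot be told apart from a difference between these 2 animals or preparations. Intervals are 95% intervals and cover no error but that of counting.

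Undifferentiated spermatogonia are the mitotic germ cells on the wall of the seminiferous tubule that include the spermatogonial stem cells. They renew under GDNF, a ligand of the surrounding somatic cells that binds GFRA1 and signals through RET, and they carry transcription factors such as ZBTB16 and ID4. When they commit, they take up the receptor KIT, and later enter meiosis. PIWIL4 is a Piwi protein that enters the nucleus with small RNAs (piRNAs) matching transposons. SPOCD1 works with it in piRNA-directed DNA methylation, and MORC1 is needed to keep transposons silent in male germ cells. *PIWIL4* is also known as a mark of the least differentiated spermatogonia of primate testis.

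The selected cells were deep. Their median was 21465 UMIs in the yak (2534 to 77884) and 29780 in the cattle-yak (14681 to 64589). These medians were 8.47 and 9.44 times those of the libraries, and lay above 95.9% and 99.0% of their cells. Upper limits at the mean plus 2 standard deviations of UMIs and genes, a common quality filter, would have left 6 yak cells and 1 cattle-yak cell. The median number of genes was 5061 and 5300. The median mitochondrial share was 10.8% in the yak cells and 22.5% in the cattle-yak cells, against 14.5% and 20.4% in the whole libraries. Doublets were not removed. A total of 24 cell barcodes occurred in both libraries, and 1 of the selected cells carried such a barcode.

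The plot of selection UMIs against depth shows how far the libraries differed in the make-up of the selection. In the yak the sum of the 3 genes ran from 5 to 50 UMIs with a median of 9, and in the cattle-yak from 5 to 30 with a median of 7. *SPOCD1* had a UMI in each of the 169 cells. It ranged over 1 to 25 UMIs per cell, with a median of 6, in the yak and over 2 to 27 UMIs per cell, with a median of 6, in the cattle-yak. *PIWIL4* had a UMI in 68 of 90 yak cells (0 to 11 UMIs per cell, with a median of 2) and in 43 of 79 cattle-yak cells (0 to 6 UMIs per cell, with a median of 1). *MORC1* had one in 51 yak cells (0 to 20 UMIs per cell, with a median of 1) and in 9 cattle-yak cells (0 to 2 UMIs per cell, with a median of 0). All 3 genes were seen in 41 yak cells and in 7 cattle-yak cells, and *SPOCD1* alone in 12 and 34.

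**Figure D1:**
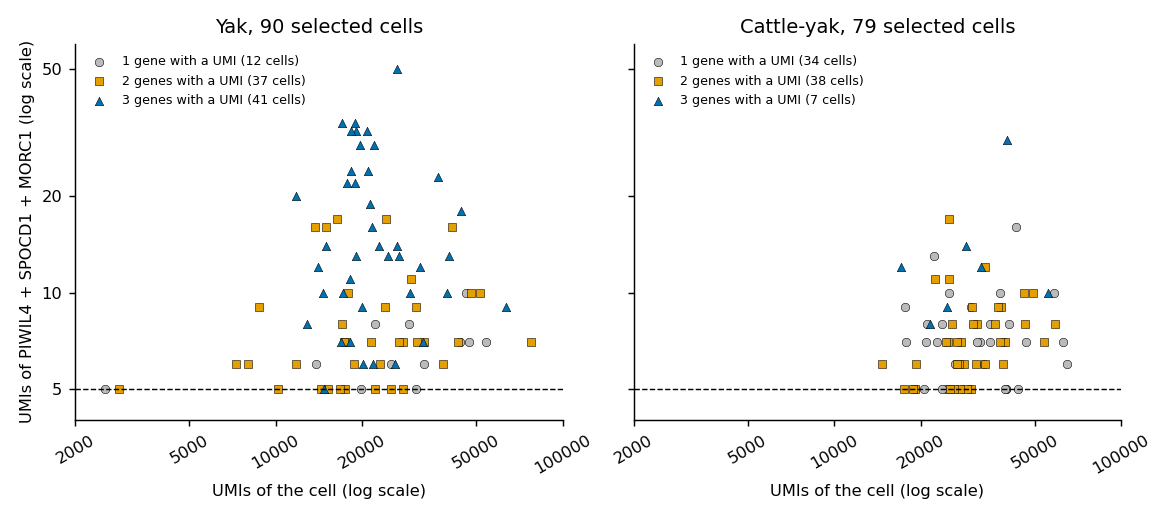
Each point is 1 selected cell, with its total UMIs on the x axis and its summed UMIs of *PIWIL4*, *SPOCD1* and *MORC1* on the y axis, both on log scales; marks show how many of the 3 genes had a UMI and the dashed line is the selection limit of 5. Yak cells with all 3 genes (41) reach 50 UMIs, whereas 34 of the 79 cattle-yak cells have *SPOCD1* alone.

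The sum was 0 in 11606 yak cells and in 8616 cattle-yak cells, most of them far shallower than the selected cells, so these counts do not limit how many cells carry the transcripts. The selected yak cells held 81.3% of the library's *PIWIL4* UMIs, 65.3% of its *SPOCD1* UMIs and 83.0% of its *MORC1* UMIs. In the cattle-yak these shares were 53.0%, 58.8% and 50%. Just outside the limit lay 19 yak cells and 31 cattle-yak cells with a sum of 4, and just inside it 13 and 19 with a sum of 5. The yak cells differed across the limit. Those with 4 UMIs had a median depth of 31373 UMIs, and 7 of the 19 carried at least 100 UMIs of late spermatocyte and spermatid genes, whereas the 13 with 5 UMIs had a median of 16772 and none did. In the yak *GFRA1* had 2 UMIs in 2 of the cells with 4, which is 3.46 CPM (UMIs of the gene per 1000000 UMIs of the cells summed; interval 0.418 to 12.5), and 9 UMIs in 3 of the cells with 5, which is 40.9 CPM (18.7 to 77.6). In the cattle-yak it was at 23.7 CPM (14.3 to 37.0) and 28.5 CPM (15.9 to 47.0). The yak values rest on few UMIs, and these groups are cut by the selection itself, so nothing is read from them.

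The name of undifferentiated spermatogonia was checked against markers. A list of germ cell genes (the pan-germ list, which includes *TEX15*, *STK31*, *TDRD1*, *SYCP1* and *DMRT1*) reached 10 UMIs in 88 of 90 yak cells and in 78 of 79 cattle-yak cells, with medians of 97 and 92. *UCHL1*, a ubiquitin hydrolase of spermatogonia, had a UMI in all 169. *GFRA1* or *RET* was seen in 43 yak cells and 58 cattle-yak cells, and both genes in 14 of each library. Genes of late spermatocytes and spermatids had medians of 3 and 2 UMIs per cell. Only 2 yak cells held at least 100 of them (829 and 190), and no cattle-yak cell held more than 12. These 2 cells gave 96.4% of the 193 UMIs of *HMGB4*, a spermatid gene, in the yak selection. As a background, *UCHL1* had a UMI in 9.46% of yak and 31.0% of cattle-yak cells of similar depth with few germ cell UMIs (the somatic cells defined further on, with medians of 19626 and 22393 UMIs), at 5.61 and 19.1 CPM, against 1477 and 2169 CPM in the selections. In the same yak cells *GFRA1* had a UMI in 0.579% and *RET* in 0.193%, against 30.0% and 33.3% of the selected cells. Genes of later stages and of dividing cells were counted as well. *KIT*, the receptor that marks commitment to differentiation, had a UMI in 53.3% of selected yak cells and 26.6% of selected cattle-yak cells, beside 22.8% and 37.2% of somatic cells, so the cattle-yak share did not exceed that background. *DMRT1* had one in 91.1% and 100% of the selections, *TOP2A* of dividing cells in 84.4% and 94.9%, and *SYCP1* of the synaptonemal complex in 97.8% and 98.7%. No somatic share is set beside these 3 genes, so their shares are a description only. The cells are therefore called by the rule that chose them and not by this name.

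Transcripts of other cell types were counted beside them. The 5 lists (T and NK lymphocytes, endothelial, stromal, smooth muscle and macrophage genes) together gave medians of 9 UMIs per yak cell and 11 per cattle-yak cell. They reached 10 UMIs in 39 and 49 cells, and passed the pan-germ UMIs in 10 yak cells and in 0 cattle-yak cells. Among other yak cells of similar depth they did so in 538 of 798. Smooth muscle genes held the most, at 715 CPM in the yak and 158 in the cattle-yak, led by *TAGLN*. Endothelial genes were at 155 and 51.5 CPM, with *CD34* at 0 in the yak and *ESAM* at 0 in the cattle-yak. Macrophage genes were at 4.50 and 4.36 CPM. Of the Sertoli list, *DHH* and *FSHR* were at 0 UMIs in both selections. The part of these transcripts in the results below was not tested; counts without the cells they dominate are given under the dependence on processing.

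The selected cells were set against other cells of the same library whose depth lay between the 10th and 90th percentile of the selected cells. For the yak these were 798 cells with a median of 20804.5 UMIs, for the cattle-yak 228 cells with a median of 24180. Among them 280 and 115 had at least 10 pan-germ UMIs and are called germ cells, and 518 and 113 had fewer and are called somatic cells. Germ cells with fewer than 20 UMIs of late genes, a limit chosen after the data were seen, are called early germ cells. They were 131 of the 280 in the yak and 109 of the 115 in the cattle-yak. A gene counted as higher or lower when the log2 ratio of CPM + 1 was at least 1 or at most -1, among genes with at least 50 counts over both sides.

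Against all other yak cells of similar depth, 2669 of 12089 genes were higher in the selected cells (22.1%) and 3185 lower (26.3%). *DLK1*, an imprinted gene for a membrane ligand that is also known from Leydig cells, came first at 475 CPM (446 to 504) against 16.0 CPM (14.2 to 17.9). It ranged over 0 to 41 UMIs per cell, with a median of 11, in the yak selection. Next with a symbol were *PCLO* (70.2 against 2.03 CPM), the homeobox gene *SHOX* (28.8 against 0.329), *ADAM23* (56.7 against 1.59) and the paired-box gene *PAX6* (28.8 against 0.384). The acetylcholine receptor subunit *CHRNB4*, the phosphatase *DUSP26*, the kinase subunit *CAMK2B*, the Wnt enhancer *RSPO3* and *UPK3A*, *NLRP14*, *TMEM130* and *ZSWIM5* followed, at log2 ratios between 4.41 for *CHRNB4* and 4.00 for *ZSWIM5*. Among the 10 lowest genes, 5 of them without a symbol, were *CD34* (0 against 557 UMIs), *SELP* (0 against 365 UMIs), both of endothelium, *CAVIN2* (9 against 1803 UMIs) and the pericyte gene *RGS5* (46 against 7477 UMIs). Of the 25 named by rank, 7 have no symbol.

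Against the 280 yak germ cells of similar depth, 21% of 10130 genes were higher and 26.9% lower. *CAMK2B* was at 63.9 against 2.37 CPM, *PAX6* at 28.8 against 0.698 and *RSPO3* at 35.1 against 1.26. The desmosome gene *DSP* was at 71.1 against 3.91 CPM. *DLK1* was at 33.9 CPM in the germ cells, a log2 ratio of 3.77. Of the 10 lowest genes 3 have no symbol. The other 7 were the acrosomal *ACRBP* (1 against 385 UMIs), *PRSS55* (1 against 484 UMIs), *LYZL4* (3 against 760 UMIs), *VSX1*, *LMOD2*, *ADSS1* and *DUSP10*.

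Receptors and regulators of undifferentiated spermatogonia were then followed through the cell groups. *GFRA1*, the GDNF receptor, was at 24.3 CPM (18.3 to 31.7) in the selected yak cells, 3.69 CPM (1.77 to 6.79) in early germ cells, 1.82 in all germ cells and 0.271 in somatic cells. *RET*, its signalling partner, was at 24.3 CPM (18.3 to 31.7) in the selection, 8.86 CPM (5.68 to 13.2) in early germ cells and 0.0904 in somatic cells. For both genes the interval of the selected cells lay above those of the early germ, germ and somatic cells of similar depth. In the cattle-yak the intervals of selected and early germ cells overlapped. There *GFRA1* was at 24.9 CPM (19.2 to 31.9) in the selection and 18.5 CPM (13.9 to 24.1) in early germ cells, with 0 UMIs in somatic cells. *RET* was at 18.6 CPM (13.7 to 24.7) and 23.6 CPM (18.4 to 29.9).

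The plot of marker levels shows other genes of the class. *NANOS3*, an RNA-binding protein that protects germ cells, was at 49.1 CPM (40.3 to 59.2) in the yak selection and 17.0 CPM (12.4 to 22.7) in early germ cells. *FGFR3*, a receptor of FGF, was at 63.9 CPM (53.8 to 75.3) and 22.2 CPM (16.9 to 28.5). *LIN28B*, which blocks maturation of let-7 microRNAs, was at 73.4 CPM (62.5 to 85.6) and 53.5 CPM (45.2 to 63.0), with 0 UMIs in the 518 somatic cells. For *NANOS3* and *FGFR3* the intervals of selected and early germ cells lay apart, and for *LIN28B* they overlapped. *ZBTB16* was at 212 CPM (193 to 232) and 125 CPM (112 to 139), but also at 119 CPM in somatic cells, so it marks these cells less sharply than the receptors. *EGR4*, a zinc finger factor of the EGR family, was at 13.5 CPM (9.11 to 19.3) and 1.11 CPM (0.228 to 3.24), from 30 and 3 UMIs. The intervals of *UCHL1* overlapped between selected cells (1477 CPM) and early germ cells (1449 CPM). In the cattle-yak the intervals of *NANOS3*, *FGFR3*, *LIN28B*, *ZBTB16* and *EGR4* overlapped between the selection and early germ cells.

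**Figure D2:**
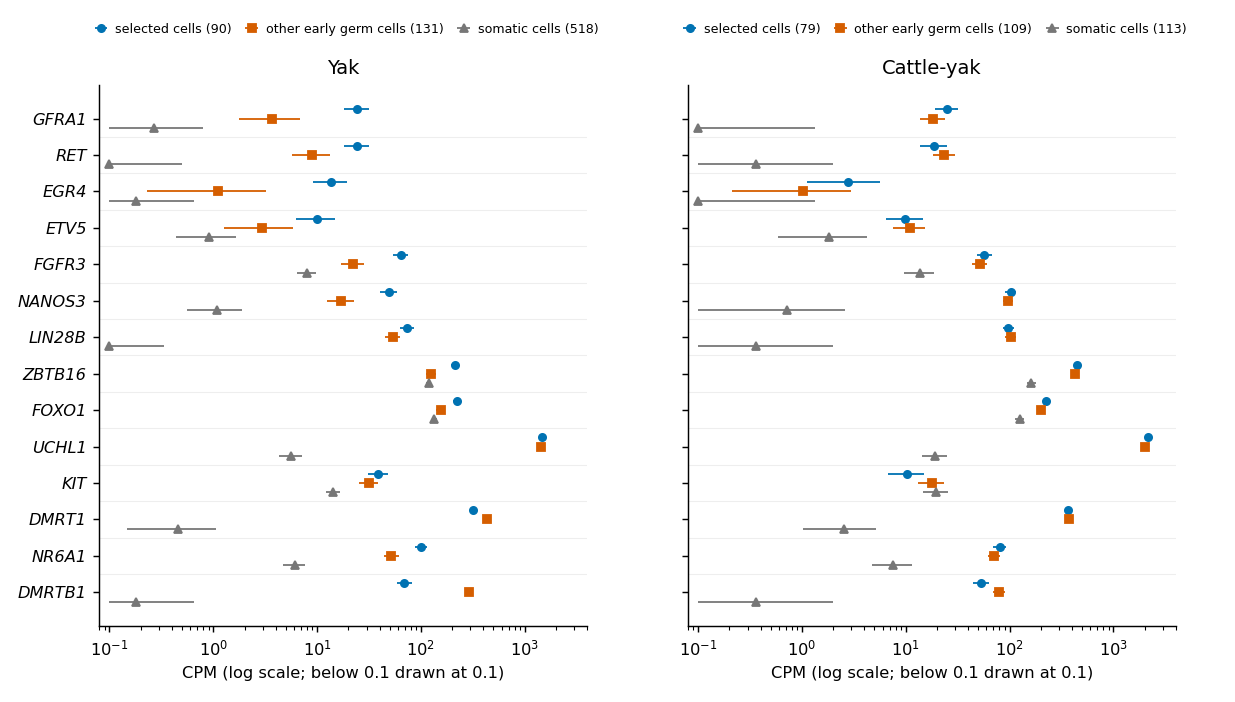
Summed expression in CPM on a log scale, with 95% Poisson intervals, of genes of undifferentiated (*GFRA1* to *UCHL1*) and differentiating (*KIT* to *DMRTB1*) spermatogonia in selected cells, other early germ cells and somatic cells of similar depth; numbers of cells stand in the legends. In the yak *GFRA1* is at 24.3 CPM in selected cells and 3.69 in early germ cells, whereas in the cattle-yak both groups lie close together for most genes.

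Against all other yak cells of similar depth, 22.1% of all genes were higher and 26.3% lower. Of the whole list of undifferentiated spermatogonia, 13 of 19 compared genes were higher and 3 lower. The lower ones were *BCL6B*, *ITGA6* and *THY1*, which vessel or stromal cells also express, and *CDH1* was at 0. The summed list stood at 2691 against 875 CPM, a log2 ratio of 1.62 (1.58 to 1.66). Its median gene was at 1.19, beside 0.05 over all genes. Against all yak germ cells 14 of 17 were higher and 2 lower (*ICA1L* and *PPP1R36*), beside 21% and 26.9% of all genes. Against early germ cells 7 of 15 were higher (*GFRA1*, *PPP1R36*, *FGFR3*, *NANOS3*, *RET*, *MSL3* and *ID4*) and 0 lower. Over all genes in that comparison, 1073 of 7763 were higher (13.8%) and 412 lower (5.31%). Summed, the list stood at 2691 against 2177 CPM, a log2 ratio of 0.31 (0.25 to 0.36) against early germ cells, and most of its UMIs were of *UCHL1*. With the 2 late cells left out, 12.2% of genes were higher and 6.04% lower, and the counts for this list did not change.

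The summed list of differentiating spermatogonia was lower in the selected yak cells than in early germ cells. None of its 6 compared genes was higher, 2 were lower and 4 lay within the limit, beside 13.8% higher and 5.31% lower over all genes. Without the 2 late cells 1 (*NR6A1*) was higher, beside 12.2% of all genes. So few genes give no result about the list's members. *DMRTB1*, a factor at the gate from mitosis to meiosis, was at 69.3 CPM (58.8 to 81.2) against 292 CPM (272 to 314). *REC8*, a meiotic cohesin, was at 27.5 CPM (21.0 to 35.3) against 66.5 CPM (57.1 to 76.9). *DMRT1*, which is also in the pan-germ list that chose the comparison cells, was at 321 CPM (298 to 345) against 434 CPM (409.7 to 459.8). *KIT*, the receptor gained on commitment, was at 38.7 CPM (31.0 to 47.8) against 31.4 CPM (25.1 to 38.8), with overlapping intervals. *NR6A1*, a nuclear receptor of germ cells, stood above early germ cells, at 101 CPM (88.1 to 115) against 52.1 CPM (43.8 to 61.4). The summed list stood at 636 against 1031 CPM, a log2 ratio of -0.70 (-0.79 to -0.60).

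Part of the cell cycle and early meiosis lists was lower in the selected yak cells than in early germ cells. Over all genes 5.31% were lower and 13.8% higher there. The median mitochondrial share was 10.8% in the selected cells and 14.5% in early germ cells. Its part in the comparisons with early germ cells was not tested. Of 22 cell cycle genes 12 were lower and 0 higher, and the sum stood at 3351 against 5867 CPM, a log2 ratio of -0.81 (-0.85 to -0.77). *TOP2A*, a topoisomerase of dividing cells, was at 351 CPM (327 to 376) against 1176 CPM (1136 to 1218). *CCNE2*, a cyclin of the G1/S transition, was at 4.50 CPM (2.16 to 8.28) against 41.0 CPM (33.7 to 49.4). Of 20 early meiosis genes 6 were lower, 0 higher and 14 within the limit. The lower ones were *SYCP3*, *RAD51AP2*, *MEIOC*, *MEIOB*, *HORMAD1* and *DMRTC2*. Without the 2 late cells 11 of 21 cell cycle genes and 7 of 19 early meiosis genes were lower. *SYCP3*, of the axis of meiotic chromosomes, was at 38.7 CPM (31.0 to 47.8) against 212 CPM (195 to 230), and *MEIOC*, which guards the meiotic programme, at 59.9 CPM (50.1 to 71.0) against 232 CPM (214 to 251). *SYCP1*, of the synaptonemal complex, did not follow them, at 601 CPM (569 to 634) and 553 CPM (525 to 582). *SYCP1* and *HORMAD1* are also in the pan-germ list that chose the comparison cells. *CTCFL*, a testis paralogue of CTCF, was among the lowest genes with a symbol, at 24.3 against 172 CPM, as was the histone gene *H2AX* (2 against 54 UMIs).

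The 3 selection genes belong to transposon silencing, and other genes of that pathway were measured. Of 21 piRNA genes 6 were higher and 1 lower than in yak early germ cells, beside 13.8% and 5.31% of all genes. The sum stood at 2962 against 2195 CPM, a log2 ratio of 0.43 (0.38 to 0.48). *PIWIL4*, which chose the cells, is among the 6 and gave 218 of the 6579 UMIs of the sum, and *TEX15* held 21.3% of them. The sum and the median below are therefore partly set by the selection. The median gene of the list was at 0.56, beside 0.12 over all genes. Without the 2 late cells it was at 0.08, beside 0.09. *TEX15*, which is needed for methylation of transposons in germ cells, was at 632 CPM (599 to 666) against 213 CPM (196 to 231). It ranged over 0 to 53 UMIs per cell, with a median of 14, in the selection. *TDRD5*, a Tudor protein of piRNA granules, was at 104 CPM (90.6 to 118) against 32.5 CPM (26.1 to 40.0). *PIWIL2*, which loads piRNAs in the cytoplasm, was at 118 CPM (104 to 133) against 76.1 CPM (66.0 to 87.2), and *TDRD1*, which binds Piwi proteins, at 185 CPM (168 to 204) against 122 CPM (109 to 136), both within the limit of a log2 ratio of 1. *TDRD7*, *TDRD6* and *PIWIL1* were higher, but without the 2 late cells *PIWIL1* was not, and *BTBD18*, a factor of pachytene piRNA loci, was lower. *TEX15*, *TDRD1* and *TDRD6* are among the piRNA genes that are also in the pan-germ list that chose the comparison cells.

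Of 15 genes of DNA methylation and silencing 6 were higher and 2 lower than in yak early germ cells, beside 13.8% and 5.31% of all genes. The selection genes *MORC1* and *SPOCD1* are 2 of the 6. *KDM1B*, a histone demethylase needed for imprint methylation in oocytes, was at 140 CPM (125 to 156) against 42.8 CPM (35.4 to 51.4). *DNMT3A*, a de novo DNA methyltransferase, was at 176 CPM (159 to 195) against 74.6 CPM (64.7 to 85.6). *SETDB1*, which places H3K9 methylation on transposons, was at 223 CPM (204 to 244) against 105 CPM (93.0 to 118). The intervals of all 3 genes lay above those of early germ cells. *DNMT1*, which copies methylation at replication, went the other way at 221 CPM (201 to 241) against 413 CPM (389 to 438), a log2 ratio of -0.90. *HELLS*, a chromatin remodeller, was at 185 CPM (168 to 204) against 229.7 CPM (212 to 248). The lower genes were *EHMT2* and *MORC2*, and without the 2 late cells *EHMT2* alone.

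**Figure D3:**
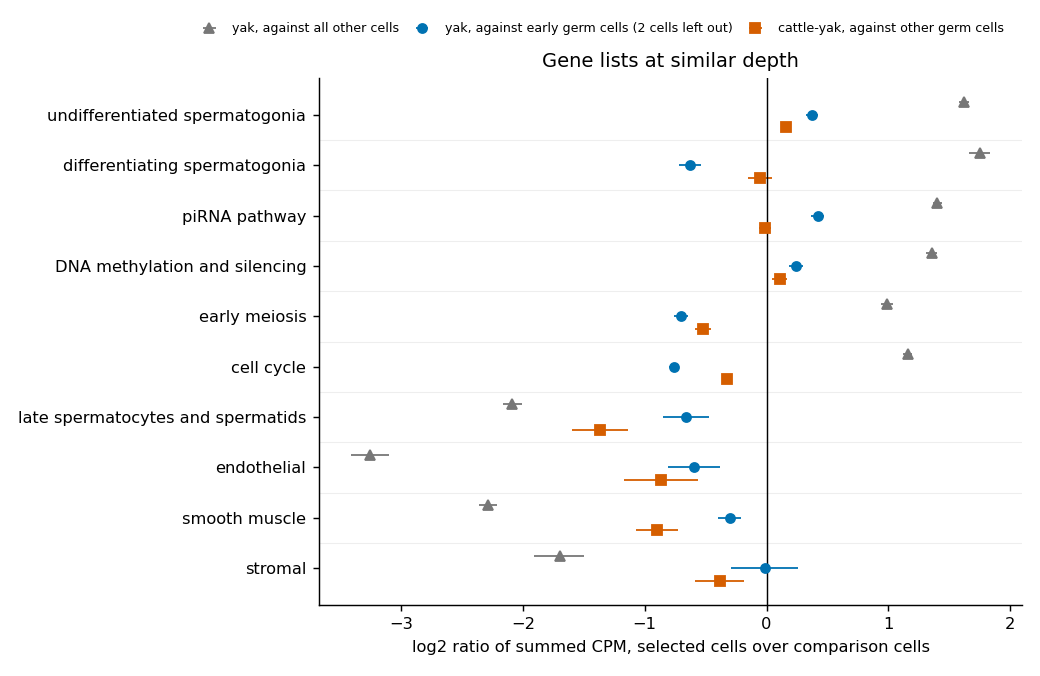
Log2 ratio of summed CPM, with 95% intervals, of 10 gene lists between selected cells and comparison cells of similar depth in the yak (all other cells, or early germ cells with the 2 late cells left out) and in the cattle-yak (other germ cells). Against yak early germ cells the undifferentiated list is above 0 and the differentiating, early meiosis and cell cycle lists below. In the cattle-yak the undifferentiated list is also above 0, at 0.16 (0.12 to 0.20). The comparison cells differ between the libraries, so the 2 sets of ratios are not like for like. The piRNA list includes *PIWIL4*, which chose the cells.

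Pathways of the niche were measured in the same way. Of 17 signalling receptors 3 were higher (*GFRA1*, *FGFR3* and *RET*) and 1 lower (*TGFBR1*) than in yak early germ cells, shares near those over all genes (13.8% and 5.31%). Of 5 niche ligands with enough counts 2 were higher. *NRG1*, a ligand of ERBB receptors, was at 23.0 CPM (17.1 to 30.2) against 2.58 CPM (1.04 to 5.33). *BMP4* was at 32.9 CPM (25.8 to 41.3) against 10.7 CPM (7.17 to 15.4) but at 86.5 CPM in somatic cells. Of 9 genes of glycolysis and serine synthesis 1 was higher (*PFKP*) and 0 lower, again no more than over all genes, and without the 2 late cells 0 were higher. Of 3 X-linked germ genes *TEX11* was lower and *TKTL1*, which is also in the pan-germ list, and *TAF7L* within the limit.

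Of the somatic lists, those of Leydig, Sertoli and epithelial cells had members that were higher in the selected cells than in yak early germ cells. *DLK1* gave 98.9% of the UMIs of the Leydig list in the yak, and *CYP11A1*, the first enzyme of steroid synthesis, was at 4.95 CPM. In early germ cells *DLK1* was at 88.2 CPM (77.4 to 100.2) and in somatic cells of similar depth at 4.34 CPM, against 475 CPM in the selection. *WT1*, a zinc finger factor of Sertoli cells, was at 166 CPM (149.6 to 184) in the selection, 33.2 CPM (26.7 to 40.8) in early germ cells and 127 CPM in somatic cells. *DMRT1*, which is in the Sertoli list and is also a gene of spermatogonia, held 61.9% of that list's UMIs. It was at 321 CPM in the selection against 0.452 in somatic cells. *DMRT1* is also in the pan-germ list that defines the somatic cells, so its low level there is set by that definition. Other Sertoli genes were at 0 (*DHH*, *FSHR* and *CITED1*) or low, with *GATA4* at 2.25 CPM and *INHA* at 6.30. *SOX9* was at 22.5 CPM, 40.0% of it from 2 cells, against 8.49 in early germ cells, and passed the limit. Of the epithelial list *WFDC2* was higher, at 38.7 CPM against 5.17, and 1 cell held 77 of its 86 UMIs and 89 of the list's 237. *EPCAM* was lower, at 49.5 against 164 CPM. Against all yak germ cells *KRT18* was higher too, at 16.2 against 3.07 CPM, 69.4% of it from 2 cells. Without the 10 cells in which somatic UMIs passed pan-germ UMIs, *DLK1* was at 512 CPM (481 to 545) and *WT1* at 176 CPM (158 to 195), while *TAGLN* of smooth muscle was at 130.3 CPM against 329.5 with them. *FMR1*, the RNA-binding protein lost in fragile X syndrome and abundant in spermatogonia, was chosen after its values were seen. It was at 888 CPM (849 to 928) in the selection against 246 CPM (227 to 265) in early germ cells, and ranged over 0 to 76 UMIs per cell, with a median of 19.5.

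Shares of cells with a UMI were compared after each cell was thinned to 5000 UMIs, which left out 2 yak cells. *DLK1* was seen in 72.7% (62.2 to 81.7%) of selected yak cells, 29.8% (22.1 to 38.4%) of early germ cells and 0.193% of somatic cells; unthinned, the share in the selection was 84.4%. *GFRA1* was seen in 6.82% (2.54 to 14.3%) of the selection and 1.53% (0.185 to 5.41%) of early germ cells after thinning, with overlapping intervals, and in 30.0% and 6.11% unthinned. *PAX6* was seen in 17.0% (9.87 to 26.6%) and 1.53% (0.185 to 5.41%), and *WT1* in 52.3% (41.4 to 63.0%) and 9.16% (4.82 to 15.5%). *WT1* was also seen in 40.0% (35.7 to 44.3%) of somatic cells, and the intervals of the selection and of somatic cells overlapped. Median depths before thinning were 21465 UMIs in the selection, 19783 in early germ cells and 19626 in somatic cells.

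Few of these cells carried a germ cell type in the study. Of the 90 selected yak cells 1 was typed as spermatogonial stem cell (SSC) and 1 as spermatogonium (SPG). The other 88 were not in the study's list of typed germ cells. That list covers 1127 barcodes of re-clustered germ cells only. Whether the 88 were filtered out or placed in a somatic cluster was therefore not seen. The study kept cells whose genes and UMIs lay within 2 standard deviations of the mean. As given above, few of the selected yak cells lie under such upper limits. The part of this filter in the typing was not tested. The 83 other cells typed SSC had a median of 1581 UMIs, and the 485 typed SPG a median of 979, far below the selected cells, and values are given side by side. *GFRA1* was at 6.64 CPM (0.168 to 37.0) in SSC and 6.49 CPM (1.77 to 16.6) in SPG, against 24.3 CPM in the selection. *DLK1* was at 53.1 CPM (22.9 to 105) and 139.6 CPM (112 to 172), against 475. *UCHL1* was at 279 CPM (201 to 377) and 1028 CPM (949 to 1111), against 1477. The *GFRA1* value in SSC rests on 1 UMI, and its interval spans the level of the selection. *PECAM1*, a marker of vessels, was at 1182 CPM (1015 to 1369) in cells typed SSC and had a UMI in 81.9% of them, against 39.2 CPM in the selection. Thinning to 5000 UMIs left 6 SPG, so no thinned share is given.

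The selected yak cells were also described by how many of the selection genes had a UMI. This grouping uses the UMIs that chose the cells and moves with depth, so its values are a description only. Cells with UMIs of 1, 2 and 3 selection genes had *DLK1* at 179.5 CPM (139 to 228), 287 CPM (253 to 324) and 762 CPM (708 to 819.6). *FMR1* was at 675 CPM (593 to 764), 654 CPM (602 to 709) and 1187 CPM (1119 to 1258), and *TEX15* at 389, 469 and 876 CPM. *TOP2A* ran against them, at 473 CPM (406 to 549), 431 CPM (389 to 476) and 229 CPM (199.8 to 261), as did *CENPF*, a kinetochore protein of late cycle, at 1668, 1146 and 607 CPM. *GFRA1* was at 19.0 CPM (7.66 to 39.2) and 29.2 CPM (19.4 to 42.1) with 1 and 3 genes, so its intervals overlapped. Median depth was lower with 3 genes, at 20193 UMIs, than with 1, at 29948.5. The median mitochondrial share was 11.3, 12.1 and 9.19% in the yak and 23.5, 23.1 and 16.7% in the cattle-yak, and its part in these values was not tested. In the cattle-yak, with 34, 38 and 7 cells, *DLK1* was at 138 CPM (117 to 162), 323 CPM (292 to 357) and 582 CPM (485 to 692), and *TOP2A* at 343 CPM (309 to 379), 328 CPM (297 to 363) and 105 CPM (66.3 to 157). Cell by cell the relation was weak there. The share of the selection genes and that of *DLK1* had a Spearman's rho of 0.127 over 79 cattle-yak cells and 0.0116 after thinning, beside 0.604 and 0.482 in the yak.

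**Figure D4:**
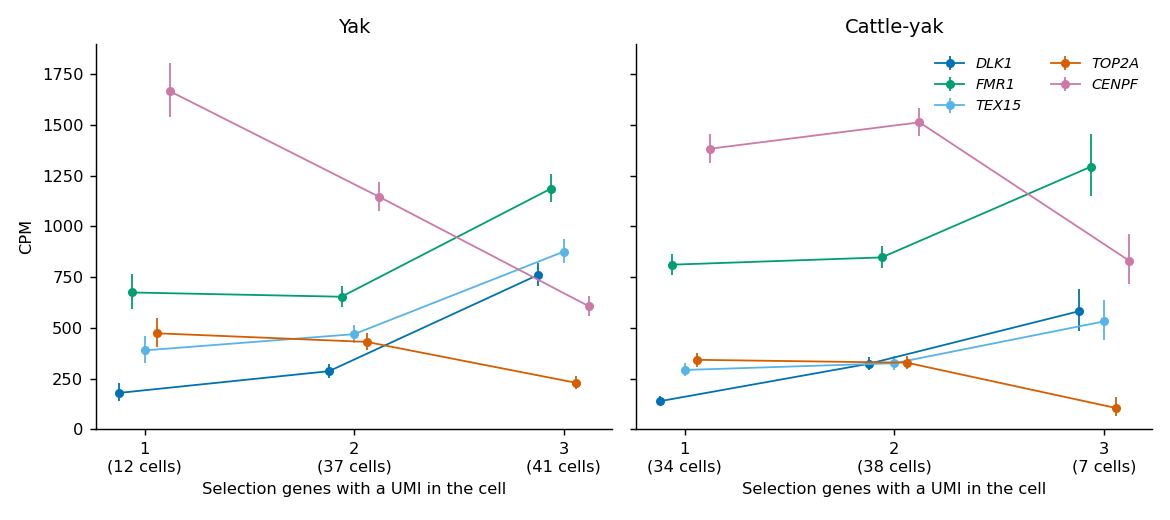
Summed CPM with 95% Poisson intervals of 5 genes in selected cells grouped by how many of *PIWIL4*, *SPOCD1* and *MORC1* had a UMI, with numbers of cells under the axis; the grouping uses the genes that chose the cells and is a description only. In the yak *DLK1* goes from 179.5 to 762 CPM and *CENPF* from 1668 to 607, and in the cattle-yak cells with 3 genes, of which there are 7, also have the most *DLK1*.

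Across single yak cells *DLK1* and *FMR1* shares of UMIs had a Spearman's rho of 0.677 over 90 cells and 0.552 after thinning (88 cells). *DLK1* and *TOP2A* plus *CENPF* had -0.496 and -0.382. *DLK1* and *WT1* had 0.264, and 0.0959 after thinning. Over 79 cattle-yak cells *DLK1* with *FMR1* gave 0.590 (0.379 thinned), and *DLK1* with *TOP2A* plus *CENPF* -0.297 (-0.282). The cells of a library share 1 animal and 1 preparation, and the selection by summed UMIs ties the selection genes to depth (rho -0.663 in the yak and -0.656 in the cattle-yak between their share and total UMIs). *DLK1* and *TOP2A* plus *CENPF* also moved with depth in the yak, at -0.414 (-0.488 thinned) and 0.446 (0.388 thinned) against total UMIs, and in the cattle-yak at 0.000184 (-0.0188) and 0.256 (0.257). All these values are descriptions only, and the part of depth in them was not tested.

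Few genes set the cattle-yak selection apart from the other germ cells of its library. Against the 228 other cells of similar depth 329 of 8891 genes were higher (3.7%) and 1531 lower (17.2%), and the lower ones were led by endothelial genes such as *PECAM1* (8 against 2335 UMIs), *EPAS1* (2 against 1082 UMIs) and *CDH5* (2 against 694 UMIs). Of 18 compared genes of undifferentiated spermatogonia 4 were higher (*GFRA1*, *UCHL1*, *NANOS3* and *PPP1R36*) and 2 lower (*BCL6B* and *ITGA6*), with *CDH1*, *POU3F1*, *THY1* and *TSPAN33* at 0 UMIs. Against the 115 germ cells only 0.107% of 7442 genes were higher and 2.47% lower. Of 17 genes of the same list 0 were higher and *ICA1L* was lower, and of 6 differentiating genes none passed either limit. Of 19 piRNA genes *PIWIL1* was lower, and the only higher one was *PIWIL4*, whose UMIs chose the cells. *DLK1* was at 264 CPM (244 to 285) and 254 CPM (236 to 272), and *FMR1* at 871 CPM (835 to 908) and 745 CPM (715 to 776). The genes that stood out were lower. *DKKL1*, an acrosomal gene of spermatocytes and spermatids, was at 5.15 against 161 CPM, and *TCFL5*, a factor of meiotic prophase, at 5.54 against 30.2 CPM. Among early meiosis genes *MEIOB*, *MEIOC* and *DMRTC2* were lower, 3 of 16. Other germ cells of this library held a median of 2 UMIs of the selection genes, and yak early germ cells a median of 0.

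Both selections were then set side by side. In the cattle-yak cells 103 of 7421 genes were higher (1.39%) and 879 lower (11.8%), with a median log2 ratio of -0.29 over all genes, beside which the values below stand. With the 2 late yak cells left out the shares were 1.5% and 8.69%. A pseudocount of 10 CPM gave 59 higher and 422 lower genes, and a denominator without mitochondrial and dominant genes gave 178 higher. *PLB1*, a phospholipase, was the highest gene with a symbol. There were 125 UMIs of it in 57 of 79 cattle-yak cells, and its level was 49.5 CPM (41.2 to 59.0). It had 0 UMIs in the yak selection, which allows up to 1.35 CPM. The other 7 of the 8 highest have no symbol, for example ENSBGRG00000011157 (636 against 31 UMIs). Of the 8 lowest, 2 have a symbol, *LCA5L* (2 against 269 UMIs) and the spermatid gene *HMGB4* (0 against 193 UMIs). Most *HMGB4* UMIs came from the 2 late yak cells, and without them neither *HMGB4* nor *LCA5L* was among the 8 lowest. Without these 2 cells 3 of the 8 lowest have no symbol, among them the lowest, ENSBGRG00000008342 (2 against 103 UMIs). The other 5 were the AP-2 factor gene *TFAP2B* (5.15 against 60.3 CPM), *MYH11* (23.0 against 189 CPM), *CCL5* (7.13 against 58.9 CPM), *CAMK2B* (8.31 against 67.5 CPM) and *TAGLN* (43.6 against 305 CPM). *MYH11* and *TAGLN* belong to smooth muscle, whose list was at 715 CPM in the yak selection and 158 in the cattle-yak. *CCL5* belongs to lymphocytes, whose list was at 116 and 60.6 CPM. The median mitochondrial share was 10.8% and 22.5%, and beyond that denominator its part in these differences was not tested.

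Over all genes 1.39% were higher and 11.8% lower in the cattle-yak selection, or 1.5% and 8.69% without the 2 late yak cells. The list counts below stand beside these shares. Of 15 genes of undifferentiated spermatogonia *ZBTB16* and *NANOS3* were higher and *ID4* lower in the cattle-yak. *ZBTB16* was at 447 CPM (422 to 474) against 212 CPM (193 to 232) and *NANOS3* at 103 CPM (91.2 to 117) against 49.1 CPM (40.3 to 59.2). Without the 2 late yak cells *NANOS3* was within the limit, at a log2 ratio of 0.98. *ID4*, an inhibitor of differentiation, was at 15.8 CPM (11.3 to 21.6) against 37.8 CPM (30.2 to 46.8). *GFRA1* was at 24.9 and 24.3 CPM. *KIT* was the only one of 6 differentiating genes past the limit, at 10.3 CPM (6.72 to 15.1) against 38.7 CPM (31.0 to 47.8). Of 20 piRNA genes 5 were lower (*PIWIL1*, *PIWIL4*, *PNLDC1*, *FKBP6* and *TDRD6*) and 0 higher. *PIWIL4* is a selection gene, so its place among the 5 is a description only. Without the 2 late yak cells 4 of 19 were lower, and *PIWIL1* was no longer among them. Of 16 early meiosis genes 4 were lower (*DMC1*, *DMRTC2*, *TEX12* and *SYCP1*), with the 2 late yak cells included. *TEX15* was at 329 CPM (307 to 352) against 632 CPM (599 to 666).

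Because the selection itself acts on *PIWIL4*, *SPOCD1* and *MORC1*, the libraries were also compared over all early germ cells in the depth window that both selections share (19227.4 to 43361.2 UMIs), selected or not, a comparison chosen after the data were seen. There were 113 such cells in the yak (median 23878 UMIs), of which 42 were selected (37.2%, 28.3 to 46.8%), and 168 in the cattle-yak (median 26174), of which 60 were selected (35.7%, 28.5 to 43.5%). *SPOCD1* was at 130.5 CPM (118 to 144) in the yak and 134 CPM (124 to 145) in the cattle-yak. *PIWIL4* was at 42.9 CPM (35.7 to 51.1) and 18.2 CPM (14.5 to 22.5), and *MORC1* at 31.6 CPM (25.5 to 38.7) and 3.21 CPM (1.79 to 5.29). Thus the intervals of *SPOCD1* overlapped between the libraries, whereas *PIWIL4* and *MORC1* were lower in the cattle-yak with intervals that did not overlap. The window pools early germ cells of any stage, and *TOP2A* and *SYCP1* also differed in it, as given below. The part of the mix of stages in the differences of this window was not tested. Whether reads of the cattle allele were counted less often on the yak annotation cannot be told apart from lower expression in these counts. In cells chosen by at least 5 UMIs of *SPOCD1* alone, 65 in the yak (median 21964 UMIs) and 68 in the cattle-yak (median 30877.5), so that the limit was stricter per UMI in the shallower yak cells, *PIWIL4* was at 96.4 CPM (82.2 to 112) and 23.6 CPM (17.7 to 30.9), and *MORC1* at 86.3 CPM (72.9 to 102) and 3.56 CPM (1.54 to 7.02).

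**Figure D5:**
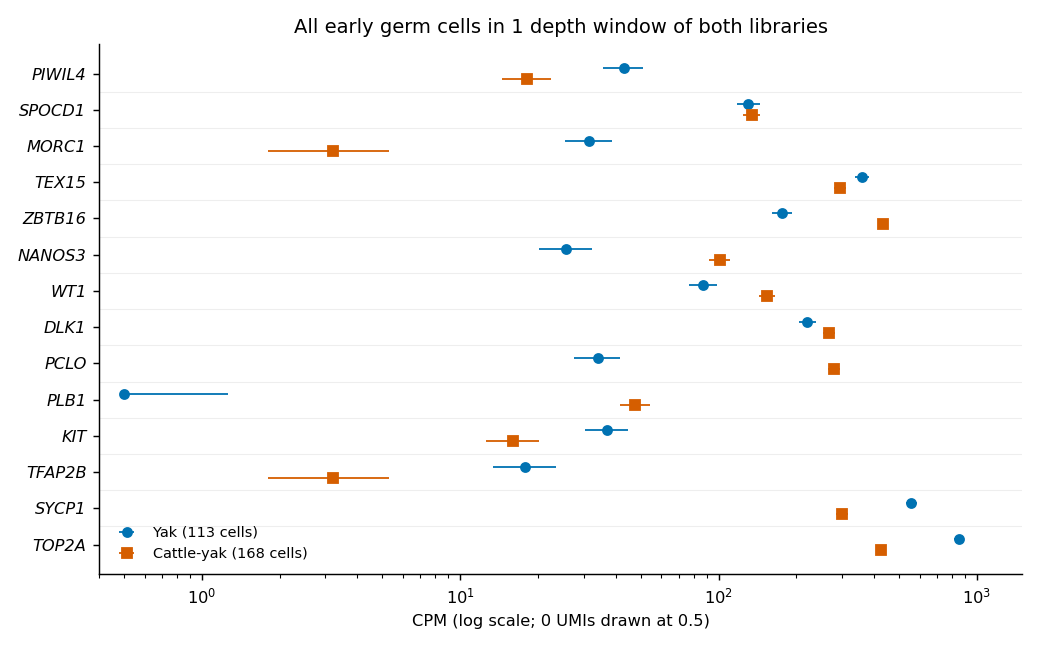
Summed CPM on a log scale, with 95% Poisson intervals, of 14 genes in all early germ cells between 19227.4 and 43361.2 UMIs, 113 in the yak and 168 in the cattle-yak. The intervals of *SPOCD1* overlap, *PIWIL4*, *MORC1*, *KIT* and *TFAP2B* are higher in the yak, and *ZBTB16*, *NANOS3*, *PCLO* and *PLB1* in the cattle-yak.

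The same window gave *ZBTB16* at 176 CPM (162 to 192) in the yak and 434 CPM (416 to 454) in the cattle-yak, and *NANOS3* at 25.7 CPM (20.3 to 32.3) and 101 CPM (92.0 to 110.4). *WT1* was at 86.9 CPM (76.5 to 98.3) and 154 CPM (143 to 166), *FMR1* at 528 CPM (502 to 555) and 830 CPM (804 to 857), and *DLK1* at 221 CPM (204 to 239) and 268 CPM (253 to 283). In this window these 5 genes were higher in the cattle-yak with intervals that did not overlap. The median mitochondrial share of the window cells was 13.9% in the yak and 22.5% in the cattle-yak, and its part in the differences between the libraries was not tested. Between the selections themselves *DLK1* went the other way, at 264 CPM in the cattle-yak and 475 in the yak, and the intervals of *FMR1* and of *WT1* overlapped. *PCLO*, a scaffold of presynaptic zones, was at 34.0 CPM (27.6 to 41.4) and 281 CPM (266 to 296). *TOP2A* was at 851 CPM (818 to 885) and 426 CPM (407 to 445), and *SYCP1* at 558 CPM (531 to 585) and 300.4 CPM (285 to 317). Both were lower in the cattle-yak. *ID4*, lower in the cattle-yak selection, was at 21.6 CPM (16.6 to 27.7) and 19.0 CPM (15.3 to 23.4) here, with overlapping intervals. *PLB1* had 0 UMIs in the 113 yak cells and a UMI in 64.9% of the cattle-yak cells.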

How the data were processed

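The authors deposited, for each library, raw UMI counts per gene and cell barcode, whole numbers without normalization over 26961 genes of the yak annotation, of which 15722 have a symbol. The file headers name Cell Ranger 5.0.0 and the submitters' processing notes name Cell Ranger 2.1.1. Germ cell types were read from the study's barcode list of re-clustered germ cells, and its somatic types were not used. All deposited cells were kept, no doublet caller was run and no cell was removed.

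Counts were summed over cells and scaled to CPM of all UMIs with exact Poisson intervals. Ratios of summed counts had exact conditional intervals, shares exact binomial intervals, all at 95% and for counting error only. A count of 0 was taken to allow up to 3 counts. Log2 ratios of genes used a pseudocount of 1 CPM. Python 3.11.15 with numpy 2.4.6, scipy 1.17.1 and pandas 2.3.3 was used. With 1 library a group, no test was run.

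The rule, the members and the 22 gene lists (370 entries, 283 with a symbol in the annotation) were chosen with earlier results of these data known. List genes without a symbol there were not analysed here. Named genes were the label markers, up to the 4 highest and 2 lowest genes and those at 0 of each list against other yak cells of similar depth, the 15 highest and 10 lowest against those cells and against yak germ cells, and the 8 highest and 8 lowest between the libraries. Other genes, among them *FMR1*, *CTCFL*, *H2AX* and further list genes, were chosen after their values were seen, as were all genes ranked only in the cattle-yak or against early germ cells. Alternatives changed the rule, the comparison cells, the cells left out, the weights, the pseudocount, the denominator and the count filter.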

Additional observations from a re-analysis of the deposited data

How the results depend on the processing

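No paired analysis was possible because each group holds 1 library and no test was run. The number of selected cells, 90 in the yak and 79 in the cattle-yak, became 50 and 33 with at least 8 UMIs of the 3 genes, 6 and 1 with upper depth limits at the mean plus 2 standard deviations, and 41 and 10 with cells thinned to 5000 UMIs and at least 3 UMIs. In the cattle-yak it became 147 with at least 3 UMIs and 45 with UMIs on at least 2 of the genes. Against other yak cells of similar depth the log2 ratio of the summed undifferentiated list, 1.62, became 1.52 with the 25th to 75th depth percentile, 2.00 with cells of any depth, 1.77 with weighted depth strata, 1.52 with equal weights of cells, 1.69 without the late cells and 1.68 without cells with more somatic than pan-germ UMIs, and a pseudocount of 10 CPM gave 1621 higher and 1646 lower genes. Against yak germ cells it was 1.41 and became 1.04 with the 25th to 75th percentile, 1.76 with any depth, 1.20 with equal weights, 1.51 with mitochondrial and dominant genes out of the denominator, 1.48 without the late cells, 1.46 without the somatic ones and 0.31 against early germ cells. There the 2123 higher genes became 1326 with the narrower depth range, 1306 with a pseudocount of 10 CPM, 3522 with no count filter and 1073 against early germ cells, where 412 were lower. The late list reversed, from -3.42 to 1.23, against early germ cells, which were chosen for few late UMIs, and stood at -0.66 with the 2 late cells left out as well. Between the libraries the 103 higher and 879 lower genes became 59 and 422 with a pseudocount of 10 CPM. The shared depth range gave 581 lower genes, at least 8 UMIs of the 3 genes gave 493, and the reduced denominator gave 178 higher ones. The undifferentiated list, 0.41, became 0.60 with that denominator, 0.35 with cells under 10 somatic UMIs, 0.34 without the late cells and 0.35 without the somatic ones. Leaving out the late cells, the cells with somatic UMIs and the early germ restriction were chosen after seeing the data. The undifferentiated list stayed above 0 in every one of these settings, and no cause of a change was tested. Genes with few UMIs, such as *EGR4* and *MORC1* in the cattle-yak cells, have wide counting intervals.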

Other observations

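The levels of some genes that are not described above are given here. *PHGDH*, the first enzyme of serine synthesis, was at 104 CPM (91.4 to 119) in the selected yak cells, 117 CPM (105 to 131) in yak early germ cells, 17.0 in somatic cells of similar depth and 72.5 CPM (62.3 to 83.8) in the selected cattle-yak cells. *PSAT1*, the next enzyme of that pathway, was at 23.9 CPM (17.9 to 31.2) in the yak selection and 46.3 CPM (38.3 to 55.5) in the cattle-yak selection. The homeobox gene *SHOX2* was at 30.6 CPM (23.8 to 38.8) and 83.5 CPM (72.7 to 95.6), and over all early germ cells of the shared depth window at 12.4 CPM (8.66 to 17.1) and 72.1 CPM (64.6 to 80.2). *STK31*, a germ cell gene of the pan-germ list, was at 701 CPM (666 to 736) in the selected yak cells and 476 CPM (450.3 to 503) in early germ cells, against 515 CPM (487 to 543) and 502 CPM (477 to 529) in the cattle-yak. *SHOX2* was chosen after its values were seen.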
